A study of Homo sapiens with 15 samples.

Results

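The 10 genes described here encode the contractile apparatus that myoepithelial cells of the breast share with smooth muscle: ACTA2, ACTG2, MYH11, MYL9, MYLK, TPM1, TPM2, CALD1, CNN1 and TAGLN. They were taken by symbol from the 60664 gene IDs in the count tables, where each of the 10 symbols matched 1 ID. Of these, 7 passed the filter on low counts and were tested among 16210 genes, while CNN1, ACTG2 and MYH11 did not pass it and are given as counts.

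The RNA came from T47D, an established luminal breast cancer line that carries estrogen and progesterone receptors, in a parental form (PAR01) and in a form resistant to 4-hydroxytamoxifen (TR01). 4-Hydroxytamoxifen, 4-OHT below, is an active metabolite of tamoxifen that binds the estrogen receptor, and erdafitinib blocks the kinases of the FGF receptor family. The series asks about undoing endocrine resistance by blocking these receptors. PAR01 cells were grown in RPMI medium with 5% fetal bovine serum and insulin, and TR01 cells in RPMI medium with 2% charcoal-stripped serum, insulin and 1 µM 4-OHT. All cells were seeded for 24 h in their own medium and then kept for 48 h in phenol red-free medium with 2% charcoal-stripped serum and no 4-OHT. Treatment lasted 120 h, and 5 groups of 3 libraries resulted: PAR vehicle and TR vehicle (0.05% DMSO), TR 4-OHT (1 µM), TR erdafitinib (5 µM) and TR combination (5 µM erdafitinib with 1 µM 4-OHT). The parental cells received vehicle only. TR01 is a single resistant line whose growth medium before seeding also differed from that of PAR01, so the resistance, the line and that history cannot be told apart.

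Total counts ran from 6946684 to 28717380 per library with a median of 22304029, so that 3 counts corresponded to between 0.104 and 0.432 CPM, the count of a gene scaled to a common library size. In bulk RNA, fewer cells of a type and less RNA per cell cannot be told apart. All 16 luminal markers examined had counts in every group, and the progesterone receptor gene PGR stood at 3861 ± 987 CPM (SD, n = 3) in PAR vehicle and 157 ± 49.3 CPM in TR vehicle. The keratins that define myoepithelial cells were at or near 0: KRT5, KRT14 and KRT17 had no count in PAR vehicle, and 14, 0 and 15 counts over the 3 TR vehicle libraries. Of 20 myoepithelial markers examined, these keratins among them, 14 were tested. In TR vehicle 10 of the 14 were higher and 2 lower, where 19.9% of all genes tested rose and 16% fell. Some of the 10 passed the filter on low counts only through resistant libraries, which favours rises, as given below. TP63, on that list, had 0.943 ± 0.836 CPM in PAR vehicle and 31.1 ± 3.39 CPM in TR vehicle. The genes are therefore called contractile genes below, with no statement that the cells are myoepithelial.

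In smooth muscle and in myoepithelial cells, calcium-bound calmodulin activates myosin light chain kinase (MYLK), which phosphorylates the regulatory light chain (MYL9) of a myosin whose heavy chain is MYH11. The myosin then pulls on thin filaments built from smooth muscle actins (ACTA2, ACTG2) with tropomyosin (TPM1, TPM2), caldesmon (CALD1), calponin (CNN1) and transgelin (TAGLN). Many of these genes are known targets of serum response factor (SRF), which binds a short motif named the CArG box together with the cofactors myocardin or the myocardin-related factors. Breast myoepithelium uses this apparatus to expel milk, and luminal cells normally hold little of it.

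RefSeq promoter windows on build GRCh38.p14 were found for 7 of the 10 genes, in 12 windows, each covering the 250 bases before a transcription start. CArG boxes were present in the windows of MYLK and ACTG2, and 1.16% of all 35114 windows of that length held one. A CArG box with 1 G or C among the A and T letters of its core, called CArG-like here, was present in 5.96% of all windows and in a window each of ACTA2 and CALD1. Of the windows below, those of ACTA2 and MYLK belong to genes that were high in resistant cells, and that of ACTG2 to a gene that had almost no reads. Bases are on the strand of the gene, 5′ to 3′, ending just before the start, with CArG and CArG-like letters in capitals.
ACTA2, chr10:88952774-88953023, minus strand: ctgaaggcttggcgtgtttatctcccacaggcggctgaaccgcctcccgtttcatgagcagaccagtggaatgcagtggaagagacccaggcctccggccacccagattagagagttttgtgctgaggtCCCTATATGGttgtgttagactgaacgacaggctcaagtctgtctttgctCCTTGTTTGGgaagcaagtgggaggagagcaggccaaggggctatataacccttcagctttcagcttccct
MYLK, chr3:123620549-123620798, minus strand: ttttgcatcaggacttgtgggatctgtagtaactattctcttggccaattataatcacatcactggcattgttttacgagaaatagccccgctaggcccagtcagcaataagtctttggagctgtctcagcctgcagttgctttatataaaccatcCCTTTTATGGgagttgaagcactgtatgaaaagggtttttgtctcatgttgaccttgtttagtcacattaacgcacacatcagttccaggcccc
ACTG2, chr2:73892758-73893007, plus strand: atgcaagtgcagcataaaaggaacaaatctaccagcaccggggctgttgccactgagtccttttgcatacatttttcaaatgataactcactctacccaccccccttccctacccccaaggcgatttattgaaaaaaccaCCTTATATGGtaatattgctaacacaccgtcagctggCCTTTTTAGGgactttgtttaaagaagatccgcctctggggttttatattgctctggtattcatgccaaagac
The ACTA2 window held CArG-like letters at positions -121 and -71 from the start, and MYLK held a CArG box at -94. The MYLK start lies inside the gene (3:123610049-123884332), towards its 3′ end, in the part from which the short kinase-free product telokin is known to be made. ACTG2 carried 2 CArG boxes, at -110 and -73. These matches are letters in a window and show nothing about binding in these cells. The motif CATTCC on either strand, which TEAD factors bind, was in 1 ACTA2 window at -183 and in 2 of 4 CALD1 windows, against 11.9% of all windows.

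Between resistant and parental cells the study asks how the resistant state differs. Resistant cells on vehicle had far more RNA of smooth muscle actin, myosin light chain kinase and caldesmon than parental cells, more of the myosin light chain MYL9, and slightly less TPM1. Of the 7 genes tested, 4 rose and 1 fell by edgeR's quasi-likelihood test (adjusted p under 0.05), where 19.9% of all genes tested rose and 16% fell. The median log2 fold change of the 7 was 2.72, against 0.07 over all genes tested. CALD1, with 12 counts in PAR vehicle, passed the filter only through resistant libraries. Smooth muscle calponin, ACTG2 and the smooth muscle myosin heavy chain had between 2 and 7 counts each over the 3 TR vehicle libraries. The resistant cells thus had reads for the actin ACTA2, the light chain, its kinase and caldesmon, and almost none for the smooth muscle heavy chain.

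ACTA2 (10:88935074-88991339, minus strand), the alpha-actin of vascular smooth muscle and myoepithelium, had 1.68, 2.06 and 2.04 CPM in the PAR vehicle libraries. The 3 TR vehicle libraries held 373, 1109 and 973 CPM. Every resistant library was far above every parental one, and TR vehicle replicate 1 was the lowest of its group. ACTA2 was 8.73 higher on the log2 scale (SE 0.44), or 424-fold, with an adjusted p of 3.4e-09 from edgeR. Per kb of exon, ACTA2 rose from 0.647 ± 0.0725 to 275 ± 132 CPM per kb (SD, n = 3). It moved from the 4th place among the 10 genes in PAR vehicle to the highest in TR vehicle, where its range still overlapped that of MYL9.

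As a share of the 6 actin genes (ACTA2, ACTG2, ACTA1, ACTC1, ACTB and ACTG1), per kb, ACTA2 held 0.231%, 0.213% and 0.155% in the PAR vehicle libraries. In TR vehicle it held 29.3%, 33.8% and 32.5%. This share spread less across the TR vehicle libraries (31.9% ± 2.3, SD) than the ACTA2 level itself did. The cytoplasmic actin genes ACTB and ACTG1 did not pass the test, with log2 fold changes of 0.53 (adjusted p = 0.178) and 1.13 (adjusted p = 0.0892). Actin genes have nearly the same coding sequence, so reads that match several of them can be lost or split in counting.

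ACTG2, the gamma-actin of enteric smooth muscle, had no read in PAR vehicle, where 3 counts would be 0.0666 CPM. It had 2 counts over the TR vehicle libraries, 4 in TR 4-OHT, 1 in TR erdafitinib and 1 in TR combination, and no fold is given. Its window with 2 CArG boxes is printed above.

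**Figure D1:**
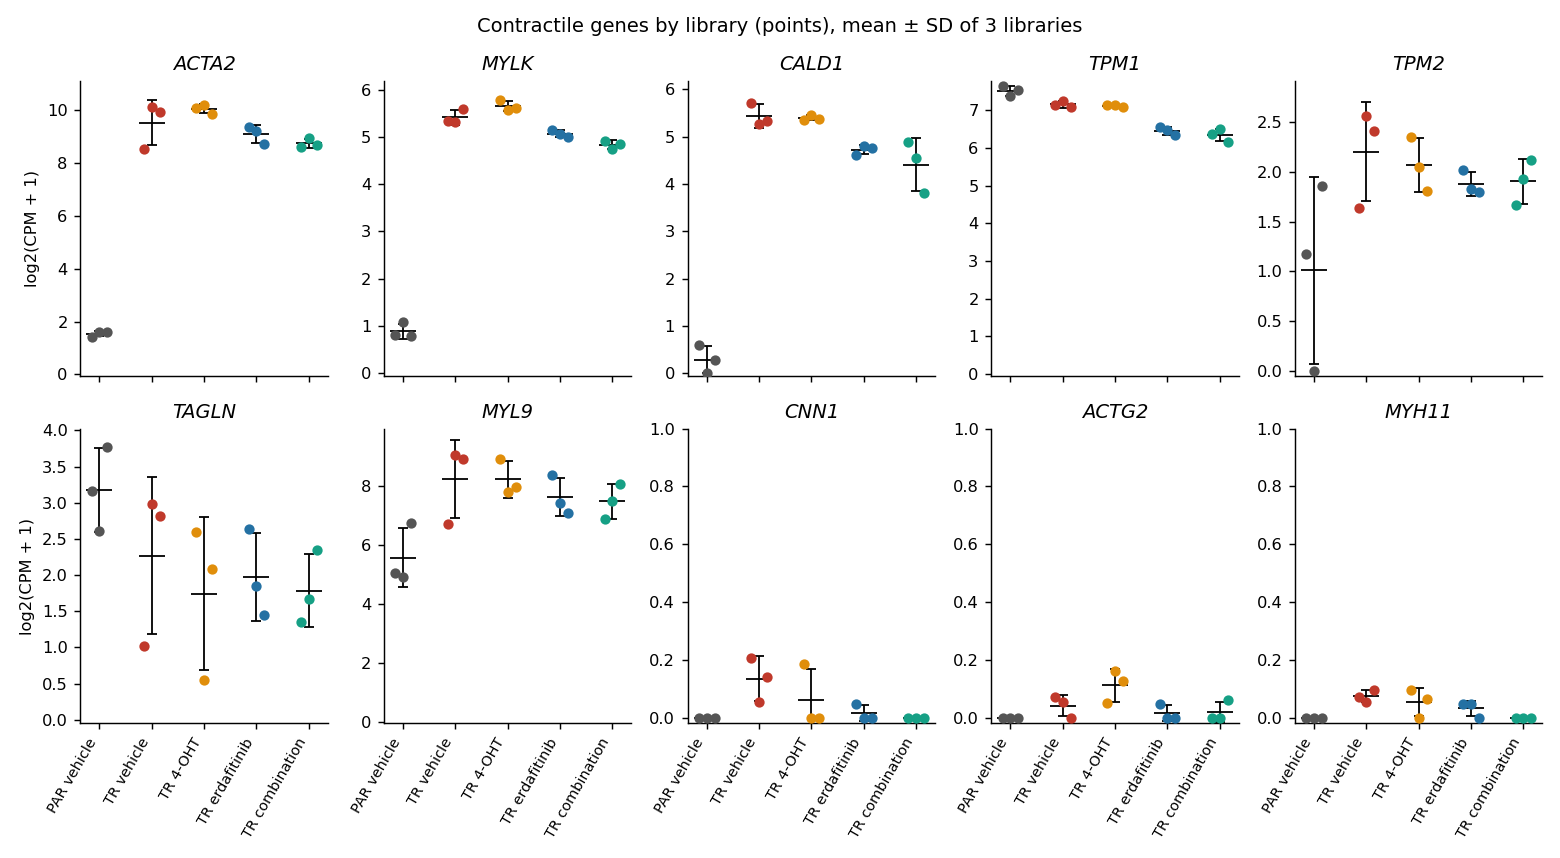
Level of each of the 10 genes in each library, as log2(CPM + 1), with points for libraries and bars for the mean ± SD of 3 libraries in a group. ACTA2, MYLK and CALD1 separate all resistant libraries from the parental ones, MYL9 and TAGLN spread widely inside groups, and CNN1, ACTG2 and MYH11 stay below 1 CPM.

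MYLK, the calcium- and calmodulin-dependent kinase of myosin light chain, had 0.755, 1.11 and 0.727 CPM in PAR vehicle and 39.2, 39 and 47.3 CPM in TR vehicle. The groups did not overlap, and the resistant libraries lay close together. The rise was 5.67 on the log2 scale (SE 0.20; 51-fold; adjusted p = 2.26e-10, edgeR). Long, short and telokin products of MYLK are summed in a count per gene. The antisense gene MYLK-AS1 had 0.837 ± 0.611 CPM in PAR vehicle and 2.24 ± 0.811 in TR vehicle (adjusted p = 0.0685, edgeR), and MYLK-AS2 had 1 count in all 15 libraries.

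MYL9 (20:36541497-36551447), the regulatory light chain that MYLK phosphorylates, had 32.5, 29.4 and 106 CPM in PAR vehicle and 104, 537 and 481 CPM in TR vehicle. PAR vehicle replicate 3 was above TR vehicle replicate 1, so the groups overlapped by these libraries. MYL9 rose by 2.72 on the log2 scale (SE 0.64; adjusted p = 0.00426, edgeR). Its share of the 3 regulatory light chain genes MYL9, MYL12A and MYL12B, per kb, was 11.2% ± 5.27 in PAR vehicle and 36.3% ± 14.6 in TR vehicle (SD, n = 3). MYL12A, a non-muscle light chain gene, rose by 0.64 (adjusted p = 0.00216), and MYL12B had 0.44 (adjusted p = 0.157).

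MYH11 (16:15703135-15857028, minus strand), the smooth muscle myosin heavy chain and a marker of mature smooth muscle, had no count in PAR vehicle or TR combination. It had 4 counts in TR vehicle, 3 in TR 4-OHT and 2 in TR erdafitinib. All 3 non-muscle heavy chain genes rose: MYH9 from 107 ± 62.1 to 474 ± 252 CPM (log2 fold change 2.14, adjusted p = 0.0056), MYH14 by 2.29 (adjusted p = 0.00833, with overlapping groups) and MYH10 by 1.33 (adjusted p = 1.5e-05). NDE1, which lies opposite MYH11, rose by 0.48 (adjusted p = 0.0151).

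Caldesmon, from CALD1 (7:134744252-134970729), binds actin and tropomyosin and restrains myosin. CALD1 had 0.503, 0 and 0.218 CPM in PAR vehicle, from 12 counts in all, and 51.5, 37.2 and 39 CPM in TR vehicle. No library overlapped between the groups. The log2 fold change was 7.30 (SE 0.45; adjusted p = 2.53e-08, edgeR). Counts per gene do not separate the long smooth muscle form of caldesmon from the short form found in most cells.

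TPM1 and TPM2 encode tropomyosins, the coiled coils that lie along actin. TPM1 had 200, 166 and 185 CPM in PAR vehicle and 141, 150 and 134 CPM in TR vehicle. It was lower in all resistant libraries, at -0.37 on the log2 scale (SE 0.13; edgeR adjusted p = 0.0324). That call rested on little: leaving out PAR vehicle replicate 1 or 3, or TR vehicle replicate 1 or 3, gave an adjusted p between 0.0501 and 0.114, and it was 0.289 with no filter on low counts, 0.137 with only these groups fitted and 0.0757 with scaling by library totals. TPM2 had 1.26, 0 and 2.62 CPM in PAR vehicle and 2.11, 4.9 and 4.31 CPM in TR vehicle, with overlap (log2 fold change 1.38, SE 0.61, adjusted p = 0.095). Without PAR vehicle replicate 3 the TPM2 value was 2.37 with an adjusted p of 0.0158 from edgeR, and DESeq2 gave 0.022 with all libraries. TPM4, a non-muscle tropomyosin gene, rose by 2.79 (adjusted p = 3.16e-05), and TPM1 fell from 44.3% ± 4.11 to 34% ± 4.11 of the 4 tropomyosin genes per kb.

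CNN1, smooth muscle calponin, had no count in PAR vehicle and 7 in TR vehicle, 1.42-fold against a floor of 3 counts over the parental group. That fold leaves out the counting error of the 7 counts, so it does not show a rise. TAGLN, the actin-binding protein transgelin and an abundant product of smooth muscle, had 7.97, 5.08 and 12.6 CPM in PAR vehicle and 1.03, 6.88 and 6.01 CPM in TR vehicle. The groups overlapped, and the value of -0.89 on the log2 scale (SE 0.72; edgeR adjusted p = 0.363) did not pass. Its non-muscle relative TAGLN2 had 0.81 (adjusted p = 0.102).

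**Figure D2:**
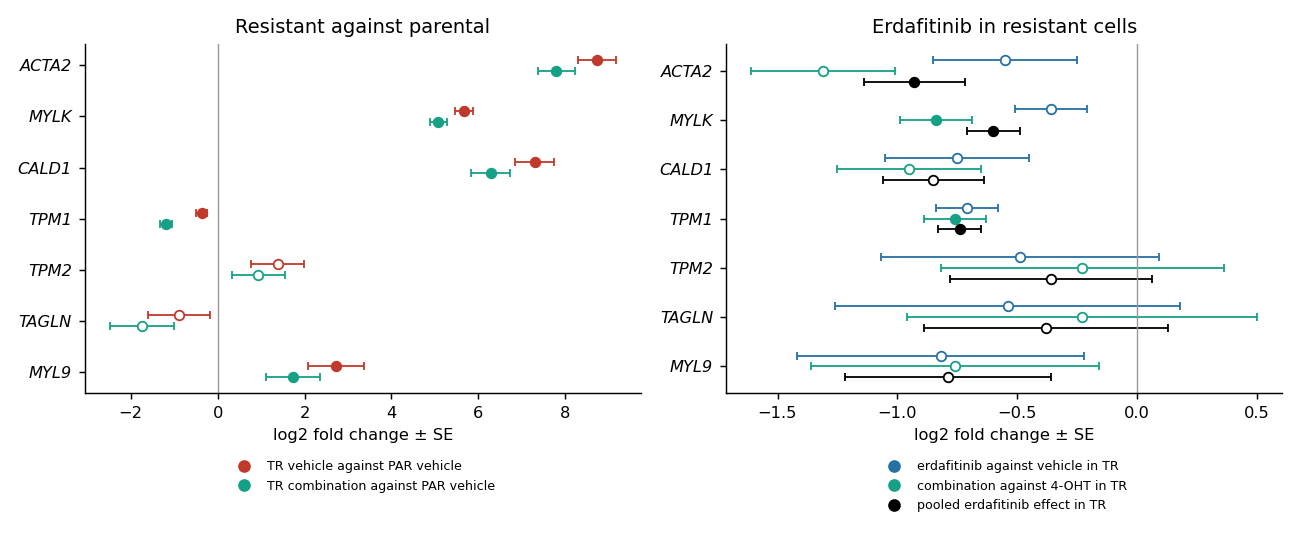
Log2 fold change ± SE of the 7 tested genes, with filled points for an adjusted p under 0.05 in edgeR and open points for the others. Against parental cells ACTA2, MYLK, CALD1 and MYL9 lie to the right of 0 with and without the drug pair, and all erdafitinib values lie to the left of 0.

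Other genes of the contractile machinery were examined as lists. Of 24 further smooth muscle genes, 16 were tested, 10 rose and 1 fell, where 19.9% of all genes tested rose and 16% fell. The median log2 fold change of this list was 1.73. PGM5 and LMOD1, among those that rose, had 2 and 14 counts in PAR vehicle and passed the filter on low counts through resistant libraries alone. The filter thus favoured rises, which can raise this count and median. JPH2, a junction protein of muscle membranes, rose by 6.62 (adjusted p = 2.07e-07), SMTN, the gene of smoothelin, by 3.85 (adjusted p = 8.38e-08), and PGM5, a protein of adherens junctions in muscle, from 2 to 234 counts (71.3-fold, exact 95% counting interval 19.5 to 592). PDLIM3, an actinin-associated LIM protein of muscle, fell from 318 to 5 counts (log2 fold change -6.50, adjusted p = 1.33e-05). DES, the muscle intermediate filament gene, ITGA8 and PPP1R14A had no count in any group. Of 16 non-muscle counterparts, all tested, 10 rose and none fell, with a median of 1.00. The actin, tropomyosin, light chain and heavy chain relatives given above and calmodulin, whose CALM3 rose by 1.45 (adjusted p = 0.00108), belong to that list.

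SRF itself had 33.8 ± 5.92 CPM in PAR vehicle and 38.7 ± 13.4 in TR vehicle (log2 fold change 0.19, SE 0.27, adjusted p = 0.619). MYOCD, the gene of myocardin, had no count in any group. The myocardin-related factor genes MRTFA (0.90, adjusted p = 0.129) and MRTFB (-0.28, adjusted p = 0.346) did not pass the test. Of the 14 SRF-related genes tested, 3 rose and 3 fell, not far from the 19.9% of all genes tested that rose and the 16% that fell. The largest changes were in KLF4, a factor known to repress smooth muscle genes, which fell from 15.6 ± 3.88 to 0.98 ± 0.337 CPM (log2 fold change -3.98, adjusted p = 5.61e-06), and ELK3, a partner of SRF on growth response genes, which rose by 2.63 (adjusted p = 7.92e-07). FOXO1 fell by 1.48 (adjusted p = 0.0112) and TEAD4 fell by 1.25 (adjusted p = 0.00667).

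Among 20 myoepithelial markers outside the contractile apparatus, 14 were tested, of which 10 rose and 2 fell, where 19.9% of all genes tested rose and 16% fell. The median of the 14 was 3.17, also with genes at 0 set to a floor of 3 counts. TRIM29 rose from 0.293 ± 0.293 to 42.8 ± 14.3 CPM (log2 fold change 7.01, adjusted p = 4.05e-08), LAMB3, a laminin-332 chain, by 5.24 (adjusted p = 1.05e-05), SNAI2 from 0 to 113 counts, 22.9-fold against that floor, and COL17A1, a hemidesmosome collagen, from 0 to 50 counts, 10.2-fold against it. These 4 genes had at most 15 counts in PAR vehicle and passed the filter on low counts through resistant libraries alone. The filter thus favoured genes higher in resistant cells, which can raise the count of 10 and the median. Setting genes to the floor does not correct for that. The 2 markers that fell were EGFR, the receptor of epidermal growth factor (-1.42, adjusted p = 6.74e-05), and LAMA3, another laminin-332 chain (-0.53, adjusted p = 0.0328). Of 16 luminal markers, 3 rose and 4 fell. PGR fell by 4.62 (adjusted p = 1.74e-08), and KRT7 and ESR1 fell by 1.45 (adjusted p = 0.0117) and 1.44 (adjusted p = 7.39e-06).

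Markers of other cells that could carry these genes were measured beside them. The 10 pericyte and vascular smooth muscle markers that are not among the contractile genes summed to between 22.4 and 50.6 CPM in PAR vehicle and between 47.7 and 140 CPM in TR vehicle, mostly NOTCH3, which rose by 1.62 (adjusted p = 0.0103). Of that whole list of 13, 6 were tested and 4 rose: ACTA2, RGS5 (4.25, adjusted p = 5.48e-05), LMOD1 (2.13, adjusted p = 0.0259) and NOTCH3. Over all genes tested 19.9% rose. RGS5 and LMOD1 had 11 and 14 counts in PAR vehicle and passed the filter on low counts through resistant libraries alone. The filter favoured their rises, so this count is no evidence about the list. Its defining genes PDGFRB, DES and MYOCD had no count in PAR vehicle or TR vehicle. The 14 fibroblast markers summed to 12.1 to 28.4 CPM in PAR vehicle and 14.6 to 41.5 CPM in TR vehicle, with COL1A2, DPT, PDGFRB, FAP and POSTN at 0 in TR vehicle. Of 5 of them tested 4 rose, with a median of 4.68, or 3.96 with genes at 0 set to the floor of 3 counts: COL3A1 from 0 to 148 counts (30.1-fold against the floor), FBLN1 from 0 to 66 (13.4-fold against the floor), VIM from 2 to 105 (32-fold, exact 95% counting interval 8.64 to 268) and THY1 from 2 to 58 (17.7-fold, interval 4.68 to 149). These 4 had at most 2 counts in PAR vehicle and passed the filter on low counts through resistant libraries alone. Such genes can only be found higher in resistant cells, so this count and median are no evidence about the list. Endothelial markers stayed under 1 CPM in sum, and ESAM (0.78, adjusted p = 0.463), the 1 of 10 tested, did not pass. Leukocyte markers summed to at most 0.836 CPM in PAR vehicle and 2.67 CPM in TR vehicle, where ITGAM rose from 0 to 66 counts (13.4-fold against the floor). Of 20 striated muscle genes 4 were tested and TNNT1, slow troponin T, rose by 2.45 (adjusted p = 0.0288, with overlapping groups), with sums of 8.41 to 47.1 CPM in PAR vehicle and 20.2 to 162 CPM in TR vehicle and MYOD1, MYOG, ACTA1 and DES at 0 in both. The part of these other markers in the contractile gene results was not tested.

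The neighbours of ACTA2 did not all move with it. FAS, the death receptor gene that starts beside ACTA2 on the opposite strand, had 7 ± 1.18 CPM in PAR vehicle and 110 ± 26.4 in TR vehicle, a rise of 4.00 on the log2 scale (adjusted p = 1.41e-08). STAMBPL1, on the other side of ACTA2, fell from 4.1 ± 2.37 to 1.6 ± 0.452 CPM (log2 fold change -1.32, adjusted p = 0.0217). ACTA2-AS1 had 0 counts in PAR vehicle and 4 in TR vehicle.

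Putting resistant cells back on 4-OHT left the contractile genes without a detected change. ACTA2 had 1088, 1174 and 928 CPM in TR 4-OHT, within or just above the TR vehicle range. None of the 7 tested genes passed edgeR's test, none had an unadjusted p under 0.05, and 0% of all genes tested were called (DESeq2 called 0 as well, and 127 reached an unadjusted p under 0.05). The log2 fold changes were 0.38 for ACTA2 (SE 0.30), 0.24 for MYLK (SE 0.15), -0.05 for CALD1 (SE 0.30), -0.05 for TPM1 (SE 0.13), -0.21 for TPM2 (SE 0.59), -0.62 for TAGLN (SE 0.72) and -0.23 for MYL9 (SE 0.60). CNN1 had 4 counts in TR 4-OHT and 7 in TR vehicle. The wide SE values of TPM2, TAGLN and MYL9 leave their changes loosely bounded, and a p that misses the threshold does not show that levels were equal.

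Erdafitinib lowered TPM1 and MYLK and, less firmly, ACTA2 in resistant cells. The 6 libraries with erdafitinib were compared with the 6 without it, averaging over the presence of 4-OHT. Of the 7 tested genes 3 fell and none rose, where 0.938% of all genes tested fell and 0.777% rose. All 7 log2 fold changes were below 0, with a median of -0.74 against -0.01 over all genes tested.

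TPM1 had 92.4, 88.3 and 80.3 CPM in TR erdafitinib and 82, 89.3 and 70.9 CPM in TR combination. In TR 4-OHT it had 139, 139 and 134 CPM. All 6 libraries with erdafitinib were below all 6 without it, and the pooled log2 fold change was -0.74 (SE 0.09; adjusted p = 0.000527, edgeR). TPM1 was already lower in resistant than in parental cells, and the libraries with erdafitinib were lower again. Its share of the tropomyosin genes was 25.4% ± 1.24 in TR erdafitinib and 24.6% ± 3.24 in TR combination, against 34% ± 4.11 and 34.8% ± 1.91 without the inhibitor.

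MYLK had 53.9, 46.3 and 48.1 CPM in TR 4-OHT, 34.5, 32.6 and 30.9 in TR erdafitinib, and 29.3, 25.7 and 28 in TR combination. The libraries with and without erdafitinib did not overlap, and MYLK fell by 0.60 on the log2 scale (SE 0.11; adjusted p = 0.0102, edgeR). It stayed far above the parental level in each library.

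ACTA2 had 663, 593 and 416 CPM in TR erdafitinib and 385, 492 and 413 CPM in TR combination. TR vehicle replicate 1, at 373 CPM, lay below all of them, so the libraries with and without erdafitinib overlapped by that library. ACTA2 fell by 0.93 (SE 0.21; adjusted p = 0.0417, edgeR). Without TR vehicle replicate 1 the value was -1.10 with an adjusted p of 0.000385, and leaving out any of the other 11 TR libraries ended the call (adjusted p between 0.0601 and 0.132). ACTA2 held 30.7% ± 3.64 of the actin genes per kb in TR erdafitinib and 27.4% ± 6.12 in TR combination, against 31.9% ± 2.3 and 39.7% ± 3.47 in TR vehicle and TR 4-OHT.

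CALD1 had 40, 42.8 and 40.4 CPM in TR 4-OHT, 23.4, 26.7 and 26.1 in TR erdafitinib, and 28.4, 22.3 and 12.9 in TR combination. The libraries with and without erdafitinib did not overlap, but the pooled value of -0.85 (SE 0.21; edgeR adjusted p = 0.0628) did not pass, and it did pass without TR combination replicate 1 (-0.98) and in 5 other alternatives, DESeq2 among them (adjusted p = 0.00134). MYL9 had 487, 220 and 248 CPM in TR 4-OHT, 329, 173 and 135 in TR erdafitinib, and 116, 178 and 271 in TR combination. Its libraries overlapped (-0.79, SE 0.43, adjusted p = 0.534). TPM2 had -0.36 (adjusted p = 0.85) and TAGLN -0.38 (adjusted p = 0.881). CNN1 had 1 count over the 6 libraries with erdafitinib and 11 over the 6 without it, ACTG2 had 2 and 6, and MYH11 had 2 and 7.

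**Figure D3:**
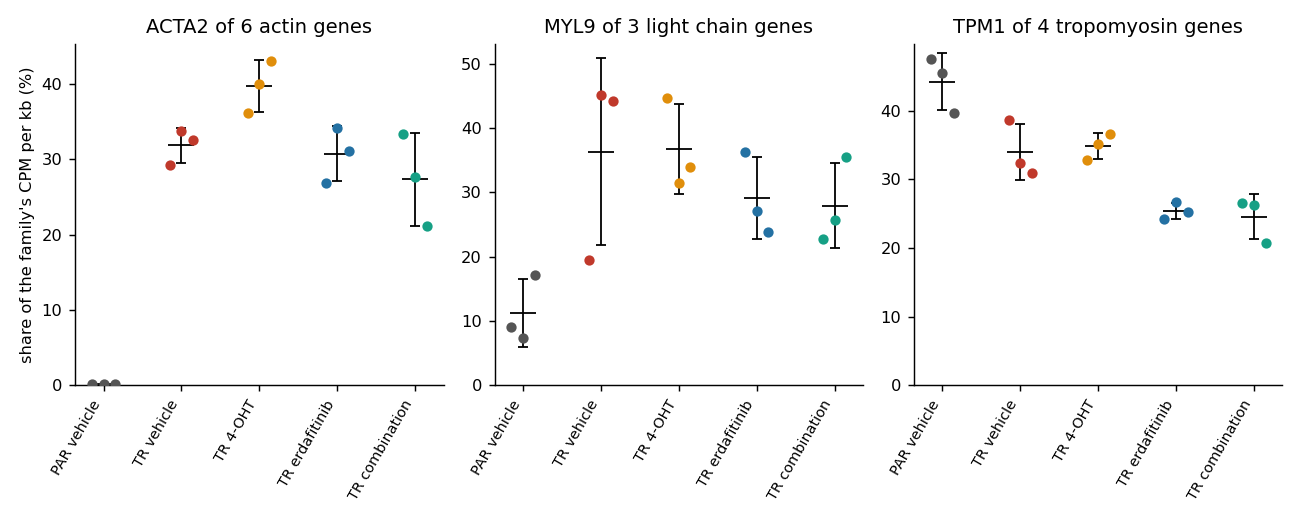
Share of ACTA2 among 6 actin genes, of MYL9 among 3 regulatory light chain genes and of TPM1 among 4 tropomyosin genes, each in percent of CPM per kb, by library, with the mean ± SD of 3. ACTA2 is under 1% in parental libraries and between 21.1% and 43% in resistant ones, and TPM1 is lowest in the groups with erdafitinib.

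Singly, the 2 erdafitinib contrasts gave fewer calls. Against TR vehicle, erdafitinib alone moved none of the 7 genes past the threshold, where 0.0925% of all genes tested were called. DESeq2 called TPM1 there, and 3 of the 7 (TPM1, MYLK and CALD1) had an unadjusted p under 0.05, as had 700 of the 16210 genes tested. TPM1 was at -0.71 (SE 0.13; adjusted p = 0.0576, edgeR). Added to 4-OHT, erdafitinib lowered MYLK by 0.84 (SE 0.15; adjusted p = 0.0198) and TPM1 by 0.76 (SE 0.13; adjusted p = 0.0104), where 0.642% of all genes tested were called. ACTA2 in that contrast was at -1.31 (SE 0.30; adjusted p = 0.0878, edgeR), with no overlap between the 3 libraries of each group. The MYLK call was lost without TR 4-OHT replicate 1 or 3 or any of the TR combination libraries (adjusted p between 0.0655 and 0.14), and the TPM1 call without TR 4-OHT replicate 1 or TR combination replicate 3 (0.0649 to 0.0651). With only the 2 groups fitted, ACTA2 was called (adjusted p = 0.0105, edgeR) and MYLK (0.096) and TPM1 (0.0997) were not. The 2 contrasts share no library, and the difference between them was tested as an interaction: none of the 7 passed, and 0% of all genes tested were called (DESeq2 called 1, and 134 reached an unadjusted p under 0.05). The interaction value was -0.75 for ACTA2 (SE 0.42; unadjusted p = 0.097) and -0.48 for MYLK (SE 0.21; unadjusted p = 0.0421), both with an adjusted p of 1, and the other 5 genes lay between -0.21 and 0.32.

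In the same pooled contrast 2 of the 16 tested further smooth muscle genes fell and none rose. SMTN went from 79.4 ± 18.4 CPM in TR vehicle and 78.2 ± 11.9 in TR 4-OHT to 43.6 ± 8.02 in TR erdafitinib and 41.7 ± 3.99 in TR combination (log2 fold change -0.88, adjusted p = 0.0133). LMOD1, leiomodin, which nucleates actin in smooth muscle, fell by 2.07 (adjusted p = 0.0304) at levels near 1 CPM. None of the 16 non-muscle counterparts or 14 SRF-related genes passed the test. ACTB was at -0.46 (adjusted p = 0.399) and ACTG1 at -0.37 (adjusted p = 0.79). Of the 14 myoepithelial markers tested 1 fell, TRIM29, to 21.8 ± 4.4 CPM in TR erdafitinib and 17 ± 1.48 in TR combination (-1.26, adjusted p = 0.00847), and 11 had an unadjusted p under 0.05, as had 1897 of the 16210 genes tested. Among pericyte markers ACTA2, LMOD1 and RGS5 (-1.41, adjusted p = 0.0379) fell, and of the fibroblast markers COL3A1 fell by 1.89 (adjusted p = 0.00502). No luminal, endothelial, leukocyte or striated muscle marker was called, and FAS was at -0.11 (adjusted p = 0.864) and STAMBPL1 at 0.53 (adjusted p = 0.531).

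Resistant cells on the drug pair were still far from parental cells in these genes. Against PAR vehicle, 4 of the 7 were higher and 1 was lower in TR combination, where 19.4% of all genes tested were higher and 15.2% lower. ACTA2 was 7.80 higher on the log2 scale (223-fold; adjusted p = 8.07e-09), MYLK 5.08 (adjusted p = 5.18e-10) and CALD1 6.29 (adjusted p = 1.13e-07). TPM1 was lower, at -1.19 (SE 0.13; edgeR adjusted p = 6.67e-06). MYL9 was 1.73 higher (SE 0.62; adjusted p = 0.043). That call was lost with scaling by library totals (adjusted p = 0.0758), without the 2 shallowest libraries (0.155), and without PAR vehicle replicate 1 or 2 or TR combination replicate 2 or 3 (adjusted p between 0.0762 and 0.144). TAGLN had 1.54, 2.18 and 4.07 CPM in TR combination, below all parental libraries, but its value of -1.74 (SE 0.74; edgeR adjusted p = 0.0849) did not pass, while DESeq2 gave 0.0351. TPM2, at 0.93 (adjusted p = 0.27), passed without PAR vehicle replicate 3 (1.91, adjusted p = 0.0453, edgeR). This comparison shares its parental libraries with the one on vehicle, so their values are not independent.

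Per kb of exon, the order of the contractile genes was the same for the 7 highest in all resistant groups: ACTA2, MYL9, TPM1, CALD1, MYLK, TPM2 and TAGLN. In TR 4-OHT these stood at 357 ± 42, 113 ± 52.2, 9.96 ± 0.208, 4.17 ± 0.153, 2.23 ± 0.18, 1.02 ± 0.25 and 0.445 ± 0.35 CPM per kb (SD, n = 3). Neighbours in that order did not overlap in TR 4-OHT, while ACTA2 and MYL9 overlapped in TR vehicle, TPM2 and TAGLN in TR vehicle and TR erdafitinib, and CALD1 and MYLK in TR combination. In PAR vehicle the order was MYL9 (20 ± 15.5), TPM1 (13.3 ± 1.25), TAGLN (1.31 ± 0.581), ACTA2, TPM2, MYLK and CALD1 (0.0244 ± 0.0256). There MYL9 overlapped TPM1, and every gene from ACTA2 down overlapped the next. These orders depend on the exon length taken for each gene.

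MYL9, TAGLN and TPM2 also varied inside groups in step with a difference between libraries that the labels do not name. The first principal component of the libraries' deviations from their group means held 49.5% of the within-group variance over all genes tested. Across those genes, the correlation of a gene with this axis rose with the GC content of its transcripts (Spearman correlation 0.723, genes not being independent replicates), and 98.9% of genes had a GC value. Deviations from the group mean had a Pearson r with the axis of 0.95 for MYL9, 0.87 for TAGLN, 0.74 for TPM2, 0.53 for ACTA2, 0.13 for TPM1, 0.08 for CALD1 and -0.18 for MYLK over the 15 libraries, which share the axis that was computed from them. MYL9 transcripts had 60.9% GC, above 88% of genes tested. TR vehicle replicate 1 was at the low end of the axis (-1.59) and PAR vehicle replicate 3 at the high end (1.72), the same libraries by which MYL9 overlapped between resistant and parental cells. With the axis as a covariate all 7 genes were called by edgeR between TR vehicle and PAR vehicle, TPM2 at 1.52 (adjusted p = 0.0023) and TAGLN at -1.03 (adjusted p = 0.0161) among them. In that fit 8887 of the 16210 genes tested were called, against 5817 without the axis. For the pooled erdafitinib effect 5 of the 7 were called, with CALD1 at -0.86 (adjusted p = 0.000443) and MYL9 at -0.69 (adjusted p = 0.00321) added. There 1715 of all genes tested were called, against 278 without the axis. That axis was estimated from the same libraries, so these p-values are smaller than an independent covariate would give.

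**Figure D4:**
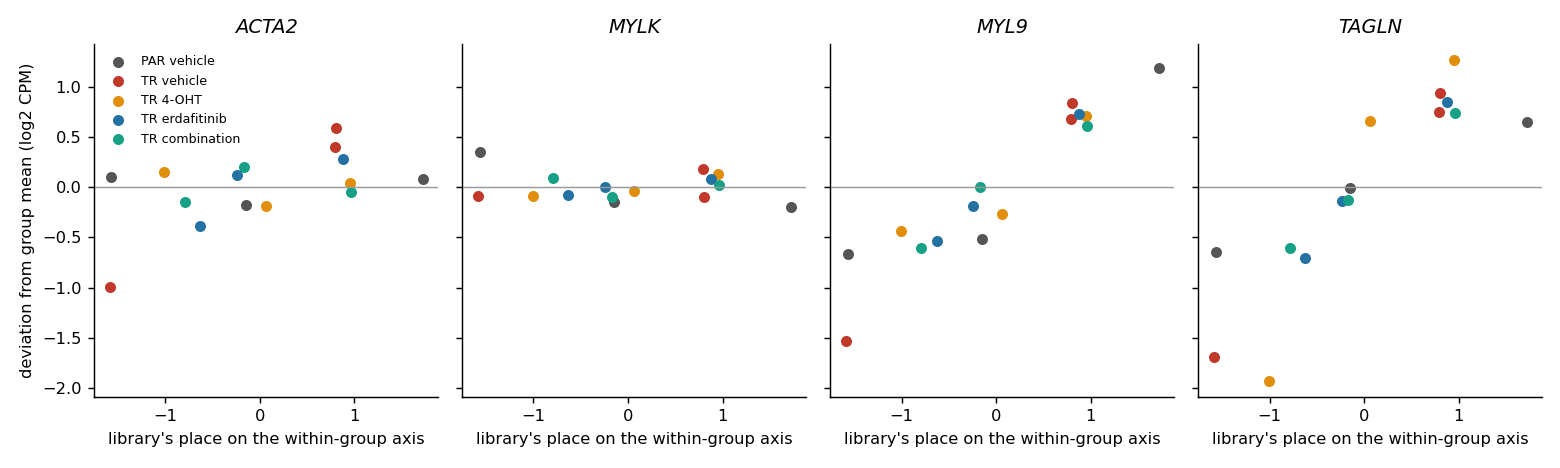
Deviation of ACTA2, MYLK, MYL9 and TAGLN from their group means (log2 CPM) against each library's place on the within-group axis (in SD units), coloured by group, 1 point per library. MYL9 and TAGLN climb along the axis, MYLK stays flat, and ACTA2 departs mainly in TR vehicle replicate 1.

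Which genes tracked ACTA2 depended on the samples compared. Among 10236 protein-coding genes with an average of at least 2 log2 CPM, those whose log2 CPM correlated best with ACTA2 over the 12 TR libraries were FSTL3 (Pearson r 0.967), RAB3D (0.966), LASP1 (0.954), FJX1 (0.947) and KRT18 (0.946). LASP1 encodes an actin-binding LIM protein, KRT18 a luminal keratin and FSTL3 a secreted binder of activins. Over the same libraries MYLK had 0.791, MYL9 0.782, TPM1 0.727, TPM2 0.716, CALD1 0.497 and TAGLN 0.292. These points share libraries, depth and the axis described above. Over the 5 group means, where the parental group alone sets most of the range, CD44, MFGE8, PALLD, EPHX1 and TNR were the closest genes outside the contractile set, all with an r that rounds to 1. MYLK also had an r that rounds to 1, at place 2 of 10236, CALD1 had 0.998, TPM2 0.993, MYL9 0.98, TPM1 -0.584 and TAGLN -0.928. PALLD, which encodes the actin-bundling protein palladin, had 59.8 ± 7.87 CPM in PAR vehicle and 172 ± 32.4 in TR vehicle (log2 fold change 1.53, adjusted p = 1.93e-05). Among pairs of contractile genes over the 12 TR libraries, TPM2 with MYL9 had the highest r (0.94), followed by CALD1 with TPM1 (0.89), MYLK with TPM1 (0.86), and MYLK with CALD1 (0.78). Over deviations from the group means of all 15 libraries the same pairs had 0.59, 0.66, -0.48 and -0.69. These values, positive and negative, lean on parental libraries in which CALD1, MYLK or TPM2 had few counts. CALD1 deviated most in PAR vehicle replicates 1 and 2, by 1.22 and -1.49, from 6 and 0 counts. MYLK deviated there by -0.15 and 0.35, from 9 and 7 counts. TPM1 deviated by 0.13 and -0.14 in those 2 libraries. TPM2 deviated by -2.93 and 1.97 in PAR vehicle replicates 2 and 3, from 0 and 72 counts. The correlations of deviations therefore do not show that the genes moved in the same or in opposite directions within resistant groups.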

How the data were processed

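RNA from 15 T47D samples was sequenced as stranded paired-end libraries, and the authors deposited a table of raw read counts per gene for each library. Reads were aligned with HISAT2 2.1.0, per the submitters' processing notes, and counted on the reverse strand with featureCounts against Ensembl 104 on GRCh38, per the file headers. The headers name featureCounts 2.0.1 and the processing notes 1.4.6-p1. The command in the headers sets no option for reads that map to several places, so reads shared by near-identical genes such as the actins may be missing, and isoforms of a gene are summed.

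CPM was computed on total counts per library multiplied by edgeR's TMM factor, and CPM per kb on the summed exon length in the tables. That length takes in all annotated exons of a gene, 13765 bases for TPM1 and 3183 for TPM2. Orders of genes and shares within a family depend on it, while the fold change of a gene between groups does not. Counts of all 5 groups were fitted together with edgeR 4.0.16 under R 4.3.3 (TMM scaling, filterByExpr by group, quasi-likelihood F test, Benjamini-Hochberg adjustment over 16210 genes, threshold 0.05). The script was tested on simulated data. The filter left out 44454 genes. Genes near 0 in PAR vehicle could pass it only through resistant libraries, so it favours rises in lists that hold such genes. Alternatives were DESeq2 1.42.0, other scalings and filters, fits of the compared groups alone, a block for the replicate number, a fit with the within-group axis as covariate, and fits without each library or without the 2 shallowest. Intervals are exact at 95% and cover counting error only. Floors are 3 counts over a group, and a fold against a floor leaves out the counting error of the higher group. Shares of CPM per kb, orders and correlations are descriptions with no test.

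Promoter windows were taken from RefSeq (GRCh38.p14) and searched on both strands for the CArG box, its variant with 1 G or C in the core, and CATTCC. Gene types came from GENCODE 29.

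The 10 genes were named whatever their values, those not tested by their counts. From each further list up to 4 called genes with the largest change were named, or the 2 most abundant where fewer than 2 were called. Relatives of the contractile genes (MYH10, MYL12A, MYL12B, TAGLN2, CALM3, ACTA1, ACTC1), the SRF cofactors, NDE1, EGFR, LAMA3 and TP63, PALLD's values and genes at 0 were added after their values were seen. The genes and lists were chosen with earlier results of these data known. The design text calls the 3 samples of a group biological replicates, without naming separate cultures or passages, so p-values measure the spread between these samples. Some items of these lists are not reported here.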

Additional observations from a re-analysis of the deposited data

How the results depend on the processing

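Of 819 log2 fold changes of the 7 tested genes under alternatives, 730 kept direction and side of the threshold, 40 lost a call, 28 gained one and 21 changed sign, all of the last without a call. Of 117 counts of called contractile genes, 104 stayed within 1.5 times. For erdafitinib against vehicle the count of 0 became 1 with a minimum of 1 CPM in 3 libraries, with the axis covariate and with DESeq2. For the combination against 4-OHT the count of 2 became 1 with only the groups compared, 5 with the axis covariate, 4 with DESeq2 and 0 to 2 without 1 library (0 without TR 4-OHT replicate 1 or TR combination replicate 3). For the pooled erdafitinib effect the count of 3 became 5 with the axis covariate, and the ACTA2 call was lost in 15 of 21 alternatives while those of TPM1 and MYLK held in all 21. The cause of these shifts was not tested. Same-numbered libraries did not pair: of 30 such pairs 13 had a correlation of deviations over 0.1 (range -0.827 to 0.772), and 6 of 15 libraries correlated best with their own number. With the replicate block the combination against 4-OHT count was 1 and the pooled count 2, MYL9 in the interaction was at -0.13, and 3 calls were lost: MYLK in the combination against 4-OHT (-0.84, adjusted p = 0.0526), ACTA2 in the pooled effect (-0.91, adjusted p = 0.0665) and MYL9 in the combination against PAR vehicle (1.81, adjusted p = 0.0502). It changed no other call of these genes.

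Sign changes without 1 library gave these ranges. For 4-OHT against vehicle they were -0.13 to 0.11 for CALD1, -0.50 to 0.02 for TPM2 and -0.69 to 0.12 for MYL9, and for the combination against 4-OHT -0.70 to 0.39 for TAGLN. For the interaction they were -0.48 to 0.07 for CALD1, -0.14 to 0.05 for TPM1, -0.14 to 0.95 for TAGLN and -0.28 to 0.52 for MYL9. Without the 2 shallowest libraries (PAR vehicle 2 and TR 4-OHT 2) the interaction was -0.13 for TAGLN and -0.15 for MYL9, and MYL9 had -0.14 with the axis covariate.

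Over all genes, calls ranged from 3544 to 8887 around 5817 for TR vehicle against PAR vehicle, 0 to 277 around 15 for erdafitinib against vehicle, 44 to 746 around 104 for the combination against 4-OHT, 138 to 1715 around 278 for the pooled effect and 4105 to 8543 around 5616 for the combination against PAR vehicle. The highest count of each of these ranges came from the fit with the axis covariate. Scaling by library totals alone moved the share of calls that were higher from 46.7% to 60.9% for erdafitinib against vehicle and from 45.3% to 55.3% for the pooled effect. Depth limits CNN1, ACTG2 and MYH11, where 3 counts over a group are 0.0395 to 0.0666 CPM.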
